A study of Mus musculus with 6 samples.

Results

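The genes described here encode proteins that read modified CpG sites: the methyl-CpG binding domain (MBD) family members Mbd1, Mbd2, Mbd3 and Mbd4, and the RING finger proteins Uhrf1 and Uhrf2. They were taken by gene symbol, with no cut on a measured value. Earlier results of these data were known when they and the lists set beside them were chosen. All 6 had a single record among the 21203 symbols of the authors' deposited table, and all 6 were marked there as tested. The table came from RNA sequencing of the nucleus accumbens, the ventral part of the striatum, in C57BL/6 mice. Mice of the cocaine group had been given cocaine intraperitoneally at 20 mg/kg on 7 days, once a day, the controls carried the treatment label saline, and the labels of both groups name a withdrawal of 4 h. Each group was 3 libraries. The labels' protocol describes cocaine for every library, so the controls rest on their own treatment label and on the sample names in the table. The sources used here do not give age, sex or the number of animals behind a library, and the spread behind the deposited p-values may therefore be technical.

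DNA methylation in mammals lies mostly on cytosines of CpG dinucleotides, and TET enzymes oxidise it to 5-hydroxymethylcytosine, a mark that is abundant in neurons. Several proteins with an MBD, such as Mbd1 and Mbd2, recognise the methylated site and bring in repressive complexes, while others carry an MBD-type domain and are not known to bind it. Mbd2 and Mbd3 each build a separate form of the NuRD complex, which joins nucleosome remodelling to histone deacetylation. Mammalian Mbd3 binds methylated DNA weakly, and Mbd4 is a DNA glycosylase that removes thymine or uracil mispaired with guanine at CpG sites. Uhrf1 and Uhrf2 hold modified cytosine through an SRA domain. Uhrf1 brings the maintenance methyltransferase Dnmt1 to newly replicated DNA, and Uhrf2 has been described as a reader of 5-hydroxymethylcytosine. The series title places Tet1 and this mark in cocaine action, so the comparison asks whether transcripts of the reader proteins differed between the groups.

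CpG dinucleotides were also counted upstream of the genes themselves, and whether these sites are modified or bound there was not measured. Windows of 250 bases upstream of an annotated start were taken from RefSeq (GRCm38.p6) for the 4 genes with an entry, Mbd3, Mbd4, Uhrf1 (2 starts) and Uhrf2. The promoters of Mbd1 and Mbd2 were not analysed here. The windows of the member with the highest transcript level, Mbd3 (chr10:80399532-80399781, minus strand), and of the member with the lowest, Uhrf1 (chr17:56303087-56303336 and chr17:56304063-56304312, plus strand), are shown 5′ to 3′ with each CG in capitals, a motif that reads the same on both strands.
Mbd3: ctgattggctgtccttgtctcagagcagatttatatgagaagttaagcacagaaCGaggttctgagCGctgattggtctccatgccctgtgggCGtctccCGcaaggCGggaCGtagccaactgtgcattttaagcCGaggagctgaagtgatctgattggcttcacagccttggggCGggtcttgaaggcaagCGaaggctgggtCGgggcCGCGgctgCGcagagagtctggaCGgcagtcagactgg
Uhrf1, upstream start: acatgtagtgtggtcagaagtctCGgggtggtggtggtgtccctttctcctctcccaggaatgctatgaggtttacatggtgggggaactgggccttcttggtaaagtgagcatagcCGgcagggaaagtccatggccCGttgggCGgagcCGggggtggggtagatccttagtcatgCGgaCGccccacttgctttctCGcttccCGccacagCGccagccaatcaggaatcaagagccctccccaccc
Uhrf1, downstream start: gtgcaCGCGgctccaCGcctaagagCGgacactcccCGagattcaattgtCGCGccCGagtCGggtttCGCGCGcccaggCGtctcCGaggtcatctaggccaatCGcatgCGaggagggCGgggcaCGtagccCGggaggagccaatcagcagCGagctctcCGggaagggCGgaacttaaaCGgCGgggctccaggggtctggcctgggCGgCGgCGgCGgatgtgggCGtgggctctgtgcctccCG
The Mbd3 window held 14 CG, and the Uhrf1 windows held 10 and 30. The Mbd4 window held 22 and the Uhrf2 window 23. Over all 32851 RefSeq windows of that length the median was 6, and 92.1% held at least 1 CG, so each of the 5 windows was above the median. The count did not follow the transcript level, since the Mbd4 and Uhrf2 windows were richer in CG than that of Mbd3. For Uhrf1 the downstream window was richer than that of Mbd3 and the upstream window poorer, and use of either start was not analysed here. Methylation of these sites was not measured in the table used here, and the windows are a description of the reference sequence only.

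Transcript levels are given as FPKM, fragments per kilobase of transcript scaled to the library total, a scale on which levels of different genes can be compared. The authors' deposited table holds 1 FPKM value per group, made over its libraries, and no value per library, so no SD stands beside a level and overlap between libraries cannot be stated. Mbd3 was the most abundant member, with 89.7 FPKM after saline and 86.5 FPKM after cocaine. Mbd2, which forms the other kind of NuRD, stood at 45.4 and 43.8 FPKM. In both groups Mbd3 was therefore about 1.98 (saline) and 1.97 (cocaine) times as abundant as Mbd2. Uhrf2 followed at 23.4 and 21.7 FPKM. Mbd1, which joins an MBD to zinc fingers of the CXXC type, stood at 11.4 and 11.1 FPKM, and the glycosylase gene Mbd4 at 2.26 and 2.25 FPKM. Uhrf1 was lowest, at 0.738 and 0.519 FPKM.

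The order of the 6 levels was the same in both groups. Mbd3 took 51.9% of the summed FPKM of the 6 genes after saline and 52.2% after cocaine, and Mbd2 took 26.2% and 26.4%. The smallest step between neighbours in the order was 1.94-fold after saline, from Mbd2 to Uhrf2, and 1.96-fold after cocaine, from Uhrf2 to Mbd1. Whether these steps exceed the spread between libraries cannot be read from a table of group values. Set among all tested records of the saline group, Mbd3 was above 94.3% of them and Mbd2 above 87.1%, while Mbd4 was above 23.4% and Uhrf1 above 10.6%. The UHRF genes, which share a domain layout, stood far apart, with Uhrf2 at 31.7 times the Uhrf1 level after saline and 41.7 times after cocaine.

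**Figure D1:**
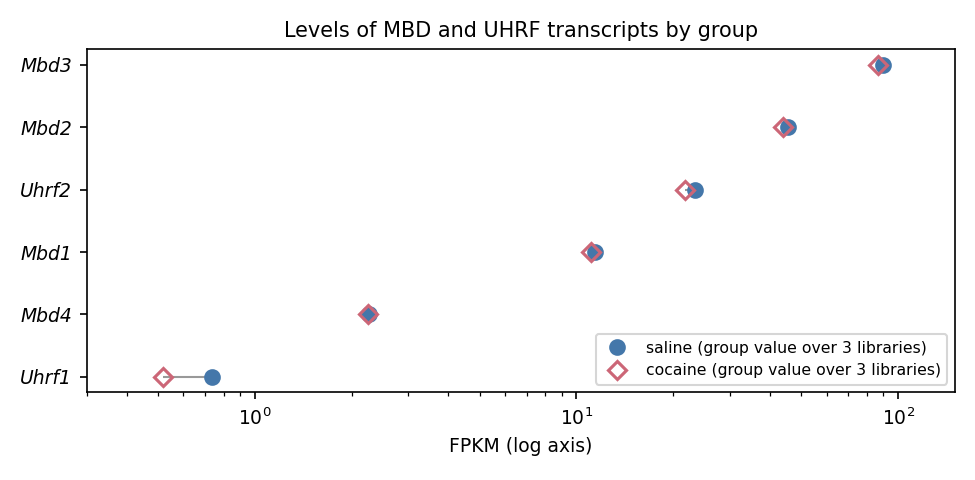
Group values of the 6 transcripts in FPKM on a log axis, with filled circles for saline and open diamonds for cocaine, each a value over 3 libraries with no error available. The order is the same in both groups, and the symbols part visibly only for Uhrf1 (0.738 and 0.519 FPKM).

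No member passed the authors' deposited test between the groups. At the deposited q < 0.05, 0 of the 6 genes were called, beside 1.23% of all 14959 tested records (184 records). At an unadjusted p under 0.05 the count was also 0 of 6, beside 5.76% of tested records. The lowest of the authors' p-values was 0.404, for Mbd3, and all 6 genes had a deposited q of 0.999976. No other test could be run without values per library.

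All 6 deposited log2 fold changes, cocaine over saline, lay below 0, with a median of -0.051, though not under every scaling given next. Values below 0 were common in the whole table, where 59.0% of tested records lay below 0 and the median was -0.022. For 5 of the 6 genes the group values differed by less than 10%. The log2 fold change was -0.053 for Mbd3, -0.050 for Mbd2, -0.041 for Mbd1 and -0.0062 for Mbd4, the last being 0.426% below the saline value. With the median of tested records of at least 1 FPKM set to 0, Mbd4 lay above 0 (0.015) and the other 5 stayed below it. The log2 fold change was -0.11 for Uhrf2 and -0.51 for Uhrf1, so the UHRF genes had the larger differences of the group. Removal of the trend of the fold change with GC content and transcript length turned Mbd3 to 0.026, Mbd2 to 0.016 and Mbd4 to 0.0021 on the log2 scale. That step also takes out the general offset below 0, and Mbd4 already lay above 0 with the median set to 0. Mbd3 and Mbd2 have GC-rich transcripts, at 62.9% and 56.5%, against a median of 49.9% over matched genes. A shared direction of the MBD genes is therefore not a feature of every scaling.

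**Figure D2:**
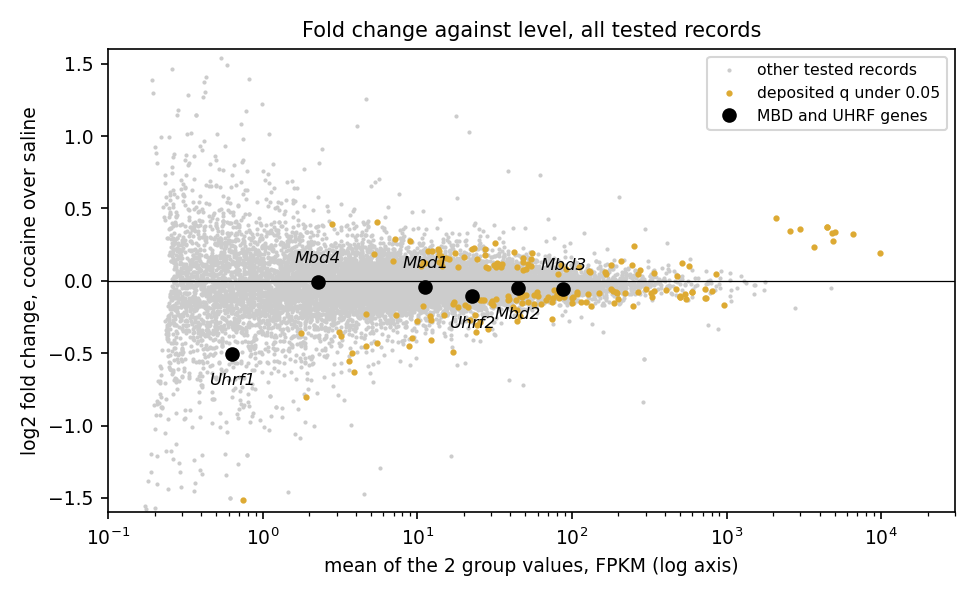
Log2 fold change (cocaine over saline) against the mean of the group values in FPKM on a log axis for tested records with a finite ratio; grey points are other records, yellow points records with a deposited q < 0.05, and black points the 6 genes, with 29 records outside the axes. Mbd1, Mbd2, Mbd3, Mbd4 and Uhrf2 lie inside the grey cloud near 0, and Uhrf1 lies at low level where the cloud is wide.

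How large a difference the data could have missed was read from the deposited p-values. If each p comes from a two-sided normal test of the log2 fold change, which the sources used here do not state, it implies a standard error and a 95% interval. For Mbd3 the implied standard error was 0.064 and the interval ran from -11.6% to 5.10% of the saline level. For Mbd1 it ran from -15.7% to 12.1%, and for Mbd2 from -17.8% to 13.6%. These 3 are the members whose group difference was held most tightly, and a difference of 20% in either direction lay outside each interval. Mbd4 had an interval from -23.2% to 29.0%. The authors' p of Mbd4 (p = 0.974) was the highest of the 6, yet its interval was wider than that of Mbd3, whose p was the lowest.

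Uhrf2 was held less tightly than its level would give. Its implied standard error was 0.30 on the log2 scale, against a median of 0.0998 among the 1244 tested records within a factor of 1.2 of its mean FPKM, and 97.7% of those records had a smaller one. The interval ran from -38.4% to 39.7% of the saline level. Tmem184b, the gene whose pair of group values was nearest to that of Uhrf2, shows the contrast: it stood at 23.3 and 21.6 FPKM, and the authors' deposited p was 0.00483, against 0.720 for Uhrf2. The implied standard error of Tmem184b was 0.038, itself below the median of 0.0998, so the contrast does not rest on Uhrf2 alone. Almost equal group values in the same table therefore came with different p-values, and values per library that would show the spread of Uhrf2 were not analysed here. The implied standard error of Mbd2 (0.12) was above that of 78.6% of records of like level, and those of Mbd3 and Mbd1 were nearer the middle, at 59.5% and 44.3%.

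Uhrf1 had the largest difference of the 6 and the least certain one. Its level was 29.6% lower in the cocaine group, a difference (cocaine minus saline) of -0.218 FPKM, with the authors' p at 0.491. The implied interval ran from 0.259 to 1.91 times the saline level, so neither a large fall nor a rise lay outside it. With a pseudocount of 1 the log2 fold change was -0.19 in place of -0.51, as the level is below 1 FPKM in both groups. Uhrf1 is known from dividing cells, and genes of DNA replication and mitosis are set beside it here. Of 14 proliferation genes tested, 13 had a log2 fold change below 0, beside 59.0% of all tested records. The list median was -0.23, or -0.17 at a minimum of 1 FPKM, beside -0.022 over all tested records. None passed the deposited q < 0.05 (0 of 14). At an unadjusted p under 0.05, 3 passed, all lower, beside 5.76% of all tested records. In the authors' deposited table the proliferation antigen gene Mki67 stood at 0.618 and 0.463 FPKM (p = 0.00290), the helicase subunit gene Mcm2 at 1.56 and 1.17 FPKM (p = 0.00631), and the ribonucleotide reductase subunit gene Rrm2 at 1.12 and 0.597 FPKM (p = 0.00681). The summed FPKM of the 14 was 54.0 and 48.7. The most abundant of them had log2 fold changes nearer 0. These were Pcna (22.6 and 21.7 FPKM, -0.062, the authors' p = 0.478) and Mcm7 (10.1 and 9.43 FPKM, -0.10, the authors' p = 0.552). Tyms was higher in the cocaine group, at 2.29 and 2.42 FPKM (the authors' p = 0.601). Of 6 neuroblast markers 5 lay below 0. Ccnd2, Sox11 and Cd24a were called as lower, with log2 fold changes of -0.39, -0.43 and -0.56, beside 1.23% of all tested records called. Dcx lay above 0, at 4.51 and 4.60 FPKM (log2 fold change 0.027, the authors' p = 0.787). The 6 markers summed to 45.0 FPKM after saline and 36.0 FPKM after cocaine, with no marker at 0. The part of dividing cells or neuroblasts in the Uhrf1 value was not tested, and in bulk tissue fewer cells of a type and less RNA per cell cannot be told apart.

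The marker lists of other cell types describe the tissue in which all 6 genes were measured. Beside each list stand all tested records, of which 59.0% lay below 0, with a median of -0.022. Of those records 1.23% were called and 5.76% passed an unadjusted p under 0.05. Medium spiny neurons are the main cells of the labelled tissue, and their markers were abundant, with summed FPKM of 3387 (saline) and 3300 (cocaine). Of 9 tested, 8 lay below 0, with a median log2 fold change of -0.028, 0 were called and 2 passed an unadjusted p under 0.05, both lower. In the authors' table these were Ppp1r1b, a dopamine-regulated phosphatase inhibitor (829 and 795 FPKM, p = 0.00508), and the opioid precursor gene Penk (1531 and 1498 FPKM, p = 0.0346), and the receptor gene Drd2 stood at 91.2 and 88.5 FPKM (p = 0.173). General neuron markers had 0 calls among 5 and a median of -0.0065, or 0.014 with the median of tested records of at least 1 FPKM set to 0. The authors' p was under 0.05 for the tubulin gene Tubb3 (153.0 and 147.6 FPKM, p = 0.00778) and not for Stmn2 (56.6 and 54.0 FPKM, p = 0.0660). Astrocyte markers had 0 calls among 5 and a median of 0.020. At an unadjusted p under 0.05 the authors' table had the filament gene Gfap lower (12.1 and 10.8 FPKM, p = 0.0166) and the water channel gene Aqp4 higher (12.5 and 14.3 FPKM, p = 0.0451). Oligodendrocyte markers had 0 calls among 5 and a median of -0.016, or 0.0050 with that median set to 0. Here the authors' table had the myelin gene Mbp at 1237 and 1264 FPKM (p = 0.0114) and Mag at 92.6 and 88.4 FPKM (p = 0.0747). Microglia markers had 0 calls among 5, 0 at an unadjusted p under 0.05 and a median of 0.065, with Cx3cr1 at 13.6 and 14.2 FPKM (p = 0.165) and P2ry12 at 11.6 and 12.2 FPKM (p = 0.506) in the authors' table. All 5 endothelial markers lay below 0, with a median of -0.34 and summed FPKM of 29.1 and 23.0, and Cldn5 was called (q = 0.00123). Among 5 choroid plexus markers Ttr was called as higher, from 0.668 to 10.8 FPKM. The other 4, of which 2 lay below 0, summed to 8.50 and 8.13 FPKM, so the larger sum over all 5 in the cocaine group (19.0 against 9.17 FPKM) came from Ttr. No marker of these lists was at 0 in either group. The part of these cell types in the values of the 6 genes was not tested.

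None of the other genes listed for an MBD-type domain or a methyl-CpG binding zinc finger passed the test either. Of 8 tested, 0 were called at the deposited q or at an unadjusted p under 0.05, with 4 above 0, 4 below 0 and a median of 0.0056. In the authors' table Mbd5 stood at 21.8 and 23.6 FPKM (p = 0.211) and Mbd6 at 23.0 and 20.8 FPKM (p = 0.317). Mbd5 and Mbd6, relatives with an MBD, thus had log2 fold changes of opposite sign (0.11 and -0.15), and neither passed. Zbtb4, a zinc finger reader of methylated CpG, stood at 30.5 and 31.2 FPKM and was the highest of this list. Setdb1, a histone methyltransferase, was marked as failed in the deposited table and has no test.

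The NuRD subunits that Mbd2 and Mbd3 bring together were present at a wide range of levels. Of 13 listed, 12 were tested, 0 were called and 0 passed an unadjusted p under 0.05. Their median log2 fold change was -0.013, or 0.0078 with the median of tested records of at least 1 FPKM set to 0. Chd3, one of the remodelling ATPases of the complex, was the most abundant at 209 and 211 FPKM, above Mbd3 itself. Chd4, a related ATPase, stood at 65.6 and 60.8 FPKM and had the smallest p of the list in the authors' table (0.109). The histone chaperone gene Rbbp7 stood at 58.0 and 54.5 FPKM (the authors' p = 0.184). The deacetylase genes Hdac1 (13.0 and 14.3 FPKM) and Hdac2 (43.8 and 45.0 FPKM) were slightly higher in the cocaine group, and neither passed. Chd5, a further ATPase of the list, was marked as failed and has no test.

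Partners of Mbd1 and Uhrf1 gave 0 calls among 9 tested genes and 0 at an unadjusted p under 0.05. Of the 9, 8 lay below 0, with a median of -0.058. Over all tested records 59.0% lay below 0, with a median of -0.022. Dnmt1, the methyltransferase that Uhrf1 brings to replicated DNA, stood at 12.2 and 11.6 FPKM (the authors' p = 0.0555), so in this tissue its transcript was far above that of Uhrf1. Atf7ip, a partner of Mbd1 and Setdb1, stood at 14.3 and 13.8 FPKM in its most abundant record (the authors' p = 0.162). The symbol also had values of 11.8 and 10.9 FPKM, with a log2 fold change of -0.12 (the authors' p = 0.0511). Hells, a remodeller needed for DNA methylation, had a log2 fold change of -0.42 at 1.47 and 1.10 FPKM (the authors' p = 0.813), another low-level gene with a large and uncertain difference.

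Base excision repair, the route that Mbd4 feeds, had 13 tested genes, of which 0 were called. Of these 11 lay below 0, beside 59.0% of all tested records. At an unadjusted p under 0.05, 1 gene passed, beside 5.76% of all tested records. That gene was Parp1, a sensor of DNA breaks, at 15.5 and 14.4 FPKM (the authors' p = 0.0101, q = 0.467). Tdg, the glycosylase that also removes oxidised forms of methylcytosine, stood at 14.5 and 13.4 FPKM (the authors' p = 0.450), well above Mbd4 at 2.26 FPKM. Smug1, a uracil glycosylase gene, stood at 6.91 and 6.47 FPKM (the authors' p = 0.191). The list median was -0.041.

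The enzymes that write and oxidise methylcytosine gave 0 calls among 6 tested and 0 at an unadjusted p under 0.05, with a median of 0.050. The writer Dnmt3a stood at 28.1 and 25.9 FPKM (the authors' p = 0.418). Among the TET genes, Tet2 stood at 6.56 and 6.86 FPKM (the authors' p = 0.132), Tet3 at 7.88 and 8.08 FPKM and Tet1 at 1.58 and 2.07 FPKM (p = 0.221). All 3 TET transcripts were thus listed higher after cocaine in the deposited values, with no gene passing. Of the 6 tested genes of the list, 4 lay above 0 and 2 below it, Dnmt1 (-0.077) and Dnmt3a (-0.12). All 6 MBD and UHRF transcripts were listed lower, also with no gene passing, beside 59.0% of all tested records below 0. Mbd2, Mbd3 and Mbd4 lay above 0 after the GC and length correction. No test was made of the contrast between the sets.

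**Figure D3:**
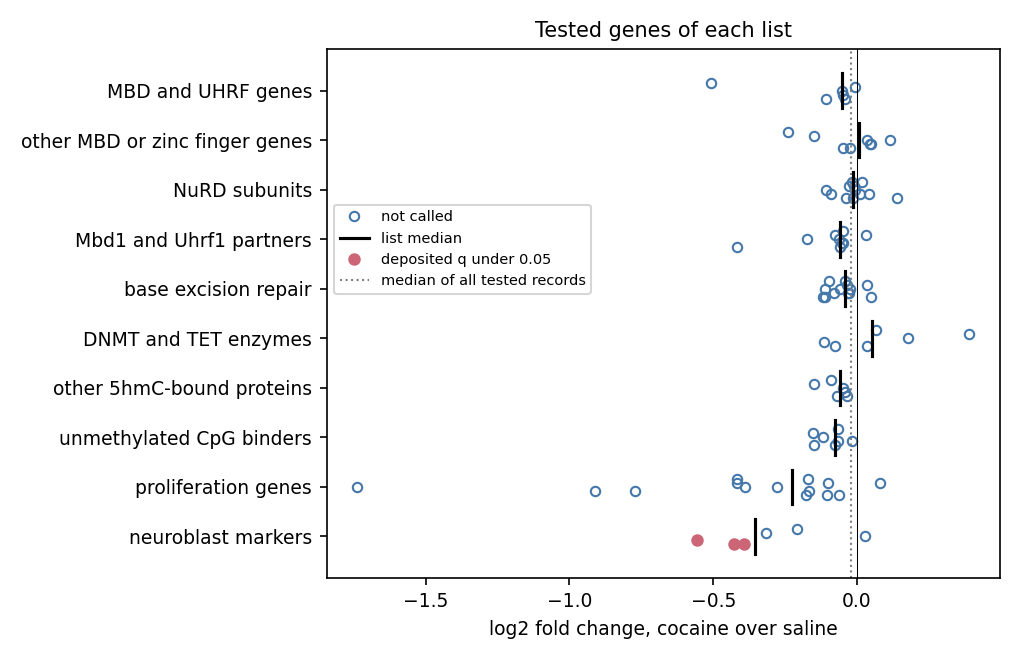
Log2 fold change (cocaine over saline) of the tested genes of 10 lists, with open circles for genes not called, filled circles for genes with a deposited q < 0.05, a black bar for each list median and a dotted line for the median of all tested records. The MBD and UHRF genes and their partner lists lie close to 0 apart from single low-level genes. The proliferation genes and neuroblast markers lie mostly to the left, with medians of -0.23 and -0.35.

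For members of at least 1 FPKM, genes with the most similar values were found by the distance between log2 group values, over the 2 groups only, so likeness here says no more than that level and difference were close. The nearest gene was Pabpn1 for Mbd3 (89.7 and 86.7 FPKM), Fkbp4 for Mbd2 (45.7 and 44.0 FPKM) and Nap1l3 for Mbd1 (11.4 and 11.1 FPKM). For Mbd4 it was Zfp867 (2.27 and 2.26 FPKM).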

How the data were processed

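RNA sequencing of 3 saline and 3 cocaine libraries is represented by 1 table of group values. The submitters' processing notes name TopHat2 2.0.6, Cufflinks 2.0.2 and build NCBIM37; the sources used here do not give settings, annotation or strand. The group values were taken as FPKM made by the authors, from the Cuffdiff layout, since the file does not name the unit. The log2 fold change, p-value and q-value are the authors', as deposited, and the spread behind their test is not stated. Read depth is unknown, so no counting interval was computed.

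Records marked as tested entered, 14959 of 21540, and a gene was called at q < 0.05. Where a symbol had several records, a list took the most abundant. The members and the 16 other lists were chosen with earlier results of these data known. Named genes were all members, the called genes of each list or else the 2 with the smallest p, a fixed set around methylation, and the gene nearest to each member of at least 1 FPKM; some genes of this rule are not reported here and were left out of the lists; a few others (Rrm2, Zbtb4, Chd3, Chd5, Setdb1, Hdac1, Hells, Drd2) were named after their values were seen. GC content and length were those of the longest GENCODE M21 transcript, matched for 97.9% of 12833 genes of at least 1 FPKM, and the median of 10 by 10 cells was subtracted. Implied standard errors, adjustment and trend removal were tested on simulated data (Python 3.11.15). Alternatives were pseudocounts of 1 and 0.1, 2 scalings, trend removal, other thresholds and FPKM minimums; a test per library, planned in case such values were present, was not run.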

Additional observations from a re-analysis of the deposited data

How the results depend on the processing

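No member was called under any threshold tried: 0 of 6 at a deposited q < 0.1, 0 at an unadjusted p under 0.05, and 0 when the p-values were adjusted again over records of at least 1 FPKM (5 members entered) or 5 FPKM (4 members). Of 29 member fold changes under the pseudocounts, scalings and trend removal, 5 turned sign. With the GC and length trend removed, Mbd3 stood at 0.026, Mbd2 at 0.016 and Mbd4 at 0.0021 on the log2 scale. Mbd4 also stood at 0.015 with the median of tested records set to 0 and at 0.0089 when each group was divided by its sum without the mitochondrial and the 2 highest records. The cause was not tested. Uhrf1 is below 1 FPKM and had no value after trend removal. Of 17 list medians, the choroid plexus median went from 0.21 to -0.041 at a minimum of 1 FPKM, where fewer genes enter, and 3 medians under 0.02 in size turned sign with the median set to 0; the other medians moved by less than 0.1. No paired analysis was possible because the table holds no value per library, and leaving out a library in turn could not be run for the same reason.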

Other observations

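Proteins that bind CpG when it is not methylated, through a CXXC zinc finger, are the counterpart of the readers described above. All 7 tested genes of that list had a log2 fold change below 0, with a median of -0.077, beside 59.0% below 0 and a median of -0.022 over all tested records. The list does not hold every gene with such a finger, so the count depends on how it was drawn. Of those placed in other lists here, Mbd1 and Dnmt1 lay below 0, and Tet1 (0.39) and Tet3 (0.036) lay above 0. Of the 7, none passed the deposited q < 0.05, and 1 passed an unadjusted p under 0.05, beside 5.76% of all tested records. Fbxl19, which encodes an F-box protein with such a finger, stood at 17.0 and 15.2 FPKM in the saline and cocaine groups (p = 0.00154, q = 0.121 in the authors' deposited table). Cxxc5 stood at 12.3 and 11.3 FPKM (the authors' p = 0.0663).

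Among 6 listed genes for other proteins known to bind 5-hydroxymethylcytosine in pull-downs, of which Mpg and Neil1 are also in the base excision repair list, 0 were called. Thap11, a zinc finger transcription factor, stood at 15.5 and 13.9 FPKM (p = 0.0187, q = 0.697 in the authors' deposited table). It was the only one at an unadjusted p under 0.05, beside 5.76% of all tested records. Thyn1 stood at 21.0 and 19.7 FPKM (the authors' p = 0.501).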
